A study of Mus musculus with 12 samples.

Results

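Genomic imprinting leaves a gene active on the maternal or the paternal chromosome alone. Imprinted genes lie in clusters, each governed by a control region that carries DNA methylation on 1 parental copy, and many of them set growth, placental development and metabolism in the embryo. The 10 imprinted genes described here were H19, Igf2, Meg3, Rian, Mirg, Dlk1, Peg3, Peg10, Grb10 and Snrpn. They were chosen by name: the locus of each was the one whose assembled transcripts matched the annotated gene completely or shared a splice junction with it. Each of the 10 names led to 1 locus among the 80012 loci counted, and all 10 were among the 17922 loci that were tested. The reads were counted without regard to the parental chromosome, so a level below is the sum over both alleles and does not report the state of the imprint.

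Poly(A) RNA was sequenced in 12 mouse libraries, 4 for each of 3 groups. All came from a single Eomes-EGFP reporter embryonic stem cell (ESC) line, labelled as C57BL/6, in which the green fluorescent protein is driven by the endogenous locus of Eomes, a T-box factor of the mesendoderm. The ESC group was taken at day 0 from cultures grown on mouse embryonic fibroblast feeders in serum with leukaemia inhibitory factor. The Eo− and Eo+ groups were the GFP-negative and GFP-positive cells sorted at day 3 from embryoid bodies of that line, a stage at which the GFP-positive cells mark the mesendoderm. The replicates carry the numbers 1, 2, 5 and 6 in every group, and the methods trace them to separate differentiation sets of that 1 line. Levels are given as CPM, read counts relative to the size of the library after TMM scaling. Fold changes are log2 differences with their standard error (SE) from limma-voom, and a gene is said to be called, to rise or to fall where the p adjusted over all tested loci did not exceed 0.05.

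Locus counts ran from 648413022 to 837308168 per library, and 3 counts, taken as the floor, came to at most 0.00485 CPM. Eomes itself was at 37.9 to 59.4 CPM in ESC, 120 to 174 CPM in Eo− and 463 to 666 CPM in Eo+ libraries. The lowest count of any of the 10 genes was 2514 reads, for Dlk1 in Eo− replicate 5, so counting error was small beside the spread between libraries. The summed level of 5 pluripotency markers was 2681 to 3478 CPM in ESC, 1304 to 1688 CPM in Eo− and 455 to 824 CPM in Eo+. The sum of 6 mesendoderm markers was 95.7 to 299 CPM, 259 to 529.8 CPM and 1782 to 3083 CPM in the same order. Fewer cells of a type and less RNA per cell cannot be told apart in such libraries.

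H19 and Igf2 are neighbours on chromosome 7. H19 (ENSMUSG00000000031) is a noncoding RNA of the maternal chromosome at chr7:142575529-142578143 on the minus strand of mm10. Igf2 (ENSMUSG00000048583), at chr7:142645345-142666816 on the same strand, is expressed from the paternal chromosome and encodes a fetal growth factor. Dlk1 (ENSMUSG00000040856, chr12:109452823-109463336) is the paternally expressed transmembrane ligand of the Dlk1-Dio3 domain. Meg3 (ENSMUSG00000021268, chr12:109540882-109571726), Rian (ENSMUSG00000097451, chr12:109593561-109662153) and Mirg (ENSMUSG00000097391, chr12:109729764-109749460) are noncoding RNAs of its maternal chromosome, and like Dlk1 they lie on the plus strand.

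The remaining 4 genes each stand for a domain of their own. Peg3 (ENSMUSG00000002265, chr7:6703886-6730493, minus strand) is a paternally expressed zinc finger protein. Peg10 (ENSMUSG00000092035, chr6:4747269-4760566, plus strand) is a paternally expressed gene derived from a retrotransposon and needed for the placenta. Grb10 (ENSMUSG00000020176, chr11:11929212-12038683, minus strand) encodes an adaptor that restrains insulin and IGF receptor signalling, maternally expressed in most tissues. Snrpn (ENSMUSG00000102252, chr7:59937371-60140219, minus strand) encodes a small nuclear ribonucleoprotein and is expressed from the paternal chromosome of the Prader-Willi domain. Its assembled locus also holds RP24-439I22.1 and Snord107, whose reads cannot be separated from those of Snrpn. The loci of H19, Meg3, Rian and Mirg likewise hold some of the annotated small RNAs in their intervals, while others were counted as loci of their own.

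These noncoding genes are hosts of microRNAs. RefSeq (GRCm38.p6) places 44 mature microRNAs on the strand of the members inside their loci, 26 in Mirg, 11 in Rian, 3 in Meg3, 2 in H19 and 2 in Igf2. Poly(A) counts measure the host transcript, and the mature microRNAs were not measured. The precursors Mir434, Mir432 and Mir370 in Rian and Mir453, Mir154, Mir496a and Mir541 in Mirg were counted apart from their hosts. They reached at most 0.136 CPM in any library, for Mir434. An example is shown for each noncoding host, in lower case with the seed, bases 2 to 8, in capitals, and the last 2 are the only pair among the 44 with the same seed.
mmu-miR-675-5p, in H19, chr7:142577112-142577133, minus strand: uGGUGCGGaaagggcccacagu
mmu-miR-770-3p, in Meg3, chr12:109563744-109563765, plus strand: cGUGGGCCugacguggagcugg
mmu-miR-370-3p, in Rian, chr12:109618305-109618326, plus strand: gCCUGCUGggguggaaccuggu
mmu-miR-453, in Mirg, chr12:109735669-109735692, plus strand: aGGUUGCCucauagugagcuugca
mmu-miR-496a-5p, in Mirg, chr12:109739132-109739152, plus strand: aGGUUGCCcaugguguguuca

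Promoter windows of 300 bases, from 250 before to 50 after an annotated start, were taken from RefSeq (GRCm38.p6) for 8 of the 10 genes, all but H19 and Peg10, with 16 windows in all. They were searched on both strands for TGCCGC, the core letters bound by the imprint-keeping factor ZFP57 when methylated, which reads GCGGCA on the other strand. Of the 16 windows 4 held the letters once, against 11.6% of 32851 windows of the same length over all genes. Of the windows without them, 2 of Snrpn belong to starts outside its counted locus. These 4 windows, of Meg3, Igf2, Grb10 and Snrpn, are shown 5′ to 3′ with the match in capitals, and the Peg3 window, without a match, is shown because Peg3 had the smallest adjusted p of the 10 genes in Eo+ against ESC. A match is a run of letters and not a measured site.
Meg3, chr12:109540746-109541045, plus strand: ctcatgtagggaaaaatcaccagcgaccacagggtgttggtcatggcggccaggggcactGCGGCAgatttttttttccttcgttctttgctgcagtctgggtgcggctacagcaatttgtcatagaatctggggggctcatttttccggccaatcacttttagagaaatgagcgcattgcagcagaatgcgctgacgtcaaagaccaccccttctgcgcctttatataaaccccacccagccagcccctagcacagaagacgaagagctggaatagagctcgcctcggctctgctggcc
Igf2, chr7:142661222-142661521, minus strand: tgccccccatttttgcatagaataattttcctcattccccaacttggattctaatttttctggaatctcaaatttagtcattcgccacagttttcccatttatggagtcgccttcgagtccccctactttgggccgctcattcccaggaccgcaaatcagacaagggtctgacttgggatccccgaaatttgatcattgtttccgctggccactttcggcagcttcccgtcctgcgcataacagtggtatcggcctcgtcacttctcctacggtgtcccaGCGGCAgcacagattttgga
Grb10, chr11:12037371-12037670, minus strand: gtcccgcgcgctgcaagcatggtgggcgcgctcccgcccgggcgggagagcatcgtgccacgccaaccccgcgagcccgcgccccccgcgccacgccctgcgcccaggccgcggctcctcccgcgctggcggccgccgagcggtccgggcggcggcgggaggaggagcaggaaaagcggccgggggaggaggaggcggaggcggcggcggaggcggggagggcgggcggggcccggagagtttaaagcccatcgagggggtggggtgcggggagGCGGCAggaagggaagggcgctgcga
Snrpn, chr7:60005150-60005449, minus strand: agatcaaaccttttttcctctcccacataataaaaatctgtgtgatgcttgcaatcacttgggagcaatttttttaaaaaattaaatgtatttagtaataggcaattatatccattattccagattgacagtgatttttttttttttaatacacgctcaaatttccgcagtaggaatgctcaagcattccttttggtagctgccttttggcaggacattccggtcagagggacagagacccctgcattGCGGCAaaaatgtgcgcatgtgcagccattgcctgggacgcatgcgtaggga
Peg3, chr7:6730370-6730669, minus strand: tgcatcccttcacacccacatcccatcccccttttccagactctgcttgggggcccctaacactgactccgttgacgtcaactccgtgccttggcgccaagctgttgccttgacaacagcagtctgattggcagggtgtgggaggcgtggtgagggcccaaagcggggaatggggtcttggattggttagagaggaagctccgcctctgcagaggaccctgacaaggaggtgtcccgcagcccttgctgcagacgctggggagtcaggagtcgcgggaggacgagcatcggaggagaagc
The Grb10 window held 45 CpG pairs, a number reached by 1.93% of all windows, and the Peg3 and Meg3 windows held 13 each. The Snrpn window held 7, which is the median of all windows.

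In Eo+ compared with ESC, 7 of the 10 genes rose and none fell, and the background is large, since 71.9% of all tested loci were called in this comparison. Of all loci 35.8% were called higher and 36.1% lower. The median log2 difference of the 10 genes was 0.62, beside 0.0 over all loci. In Eo− compared with ESC 6 genes rose and Dlk1 fell, with a background of 62.2% called, 30.9% higher and 31.3% lower, and a median of 0.86 beside 0.02. Between Eo+ and Eo− 9 genes were called, 5 higher and 4 lower in Eo+, while 47.7% of all loci were called, 23% higher and 24.6% lower. The share of the 10 genes called in Eo+ or Eo− against ESC was near these backgrounds.

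**Figure D1:**
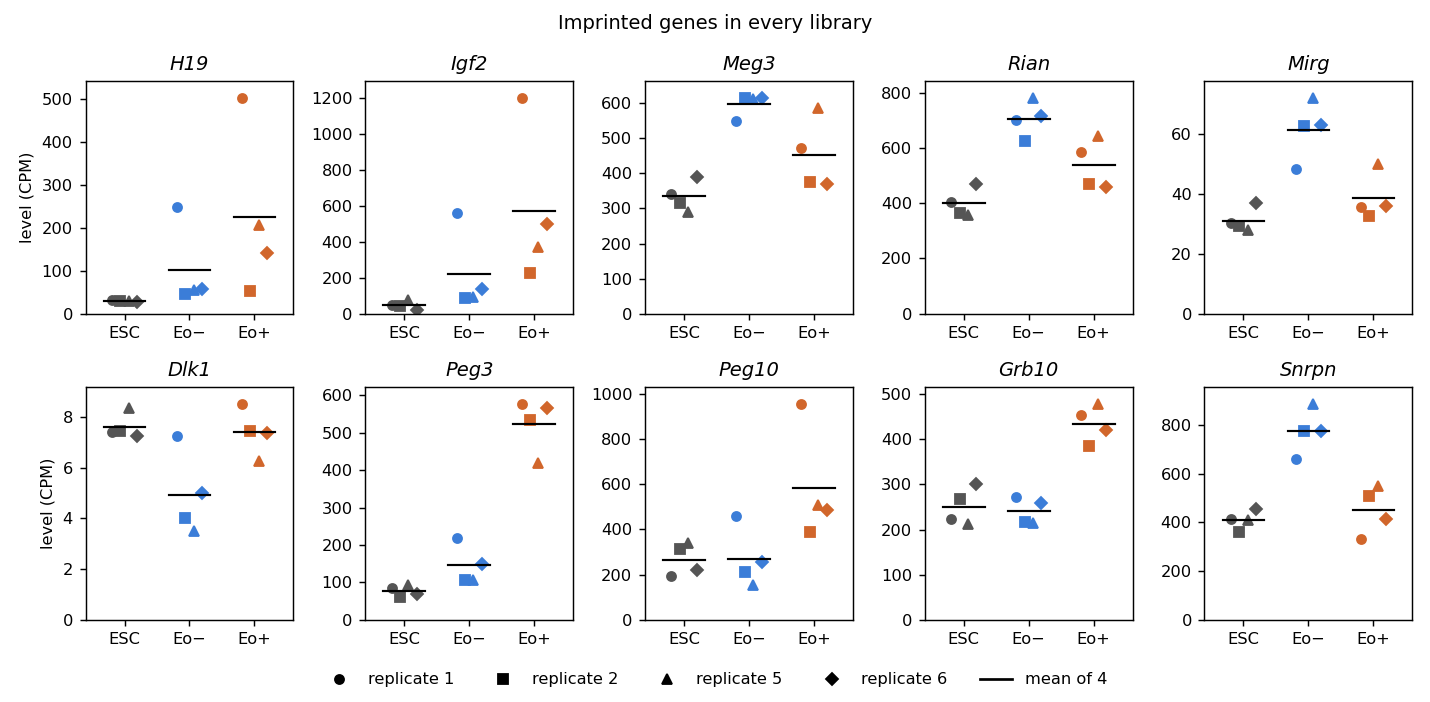
Level of each of the 10 imprinted genes in CPM (vertical axis, from 0, with its own scale per gene) in the 4 ESC, 4 Eo− and 4 Eo+ libraries, with a symbol per replicate number and a bar at the mean of 4. Peg3 and Grb10 stood higher in all 4 Eo+ libraries than in any other library, and Meg3, Rian, Mirg and Snrpn had their highest mean in Eo−.

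The growth factor Igf2 had the largest rise of the 10 genes against ESC in both day 3 fractions. In ESC replicates 1, 2, 5 and 6 it was at 46.1, 43.7, 75.4 and 22.3 CPM. In Eo− the 4 values were 562, 88.2, 93.1 and 139 CPM, and in Eo+ they were 1199, 226, 369.5 and 502 CPM. Every day 3 library was above every ESC library, and replicate 1 was the highest of its group in both sorted fractions. Igf2 rose by 3.45 ± 0.63 (SE, n = 4 each) on the log2 scale in Eo+ against ESC (limma adjusted p = 0.000228) and by 1.88 ± 0.65 in Eo− against ESC (limma adjusted p = 0.0218). The latter call was lost without Eo− replicate 1 (1.27, limma adjusted p = 0.0599) or without ESC replicate 6 (1.58, limma adjusted p = 0.0617). Within each of the 4 replicate numbers the Eo+ library was above its Eo− partner, and the difference between the fractions was 1.57 ± 0.57 (limma adjusted p = 0.0363). That call did not hold with edgeR (adjusted p = 0.0894) or DESeq2 (adjusted p = 0.139), in a fit of the 2 fractions alone (limma adjusted p = 0.0645), or without Eo− replicate 2, 5 or 6 or Eo+ replicate 1 or 6 (limma adjusted p from 0.0669 to 0.111). Without Eo− replicate 1 the difference grew to 2.19 (limma adjusted p = 0.00256). With the replicate block it held (1.55, limma adjusted p = 0.00563), as it did in a blocked fit of the 8 sorted libraries alone (1.57, limma adjusted p = 0.000104) and without replicate 1 of all groups (1.73, limma adjusted p = 0.00303).

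H19, the noncoding partner, was steady in ESC and varied widely between the day 3 libraries. Its ESC levels were 31.4, 30.7, 30.6 and 26.8 CPM. The Eo− libraries were at 249, 45.6, 54.8 and 56.4 CPM, and the Eo+ libraries at 502.5, 52.8, 207 and 141 CPM. All day 3 libraries were above all ESC libraries, replicate 1 was again the highest in each fraction, and Eo+ replicate 2 lay among the Eo− values. The rise of 2.48 ± 0.67 in Eo+ against ESC was called (limma adjusted p = 0.00419). The difference of 1.38 ± 0.69 in Eo− against ESC was not (limma adjusted p = 0.0961), although edgeR called it at 1.76 (adjusted p = 0.0257) and DESeq2 at 1.71 (adjusted p = 0.0405). With the replicate number as a block it was 1.61 (limma adjusted p = 0.00336). Without Eo− replicate 1 it was 0.80 (limma adjusted p = 0.286), and without replicate 1 of all groups 0.82 (limma adjusted p = 0.128). Between the fractions H19 differed by 1.11 ± 0.60 (limma adjusted p = 0.144). With the block, which pairs the fractions of a culture, that difference was 1.13 (limma adjusted p = 0.0203), and in a blocked fit of the 8 sorted libraries alone it was 1.15 (limma adjusted p = 0.00295). It was also called without Eo− replicate 1 (1.69, limma adjusted p = 0.0243) or without Eo+ replicate 2 (1.67, limma adjusted p = 0.0163), and was smallest without Eo+ replicate 1 (0.57, limma adjusted p = 0.403).

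The ratio of H19 to Igf2 counts within a library, which no scaling between libraries can move, was 0.405 to 1.2 in ESC, 0.405 to 0.588 in Eo− and 0.233 to 0.559 in Eo+. The groups overlapped. The ratio was lower by 0.98 on the log2 scale in Eo+ than in ESC (exact two-sided permutation test, p = 0.0857, 0.206 after adjustment over 12 ratio tests). Between the fractions it was lower in Eo+ in 4 of 4 pairs with the same number, by 0.46 on the log2 scale on average, where the exact two-sided test over pairs cannot give less than its p of 0.125. Over all 12 libraries H19 and Igf2 followed each other with a Pearson r of 0.94 on log2 CPM, and with 0.87 after the group means were removed. These values describe libraries that share cultures and depth.

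Markers of other cell types were read beside both genes. The sum of 7 visceral endoderm markers, Ttr, Apoa1, Apob, Afp, Amn, Cubn and Rbp4, was 5.65 to 10.3 CPM in ESC, 6.30 to 18.0 CPM in Eo− and 11.5 to 95.7 CPM in Eo+. Its highest value was in Eo+ replicate 1 and its lowest Eo+ value in replicate 2, the libraries in which H19 and Igf2 were highest and lowest within Eo+. In the test 5 of these 7 genes rose in Eo+ against ESC and 1 in Eo− against ESC, and 1 fell in each. The sum of 5 primitive blood markers reached 105 CPM in Eo− replicate 1 and 16.0 CPM in Eo+ replicate 1, and was 1.41 to 5.88 CPM in every other library. Hbb-bh1 alone gave 76.2 CPM of the sum in Eo− replicate 1 and 7.68 CPM in Eo+ replicate 1. Of these 5 genes 3 rose in Eo− against ESC and none was called in Eo+ against ESC. Fibroblast markers of the feeder layer, 15 genes, summed to 146 to 404.5 CPM in ESC, 33.3 to 45.1 CPM in Eo− and 40.6 to 79.6 CPM in Eo+. Of 13 tested, 12 fell in Eo+ and 12 in Eo− against ESC, where Thy1 rose, and Mmp3 was at 0 in every sorted library. Over all loci 35.8% rose and 36.1% fell in Eo+ against ESC, and 30.9% and 31.3% in Eo− against ESC. Fibroblasts of the embryo also express H19, Igf2 and Dlk1. The part of any of these cell types in the levels of the 10 genes was not tested.

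**Figure D2:**
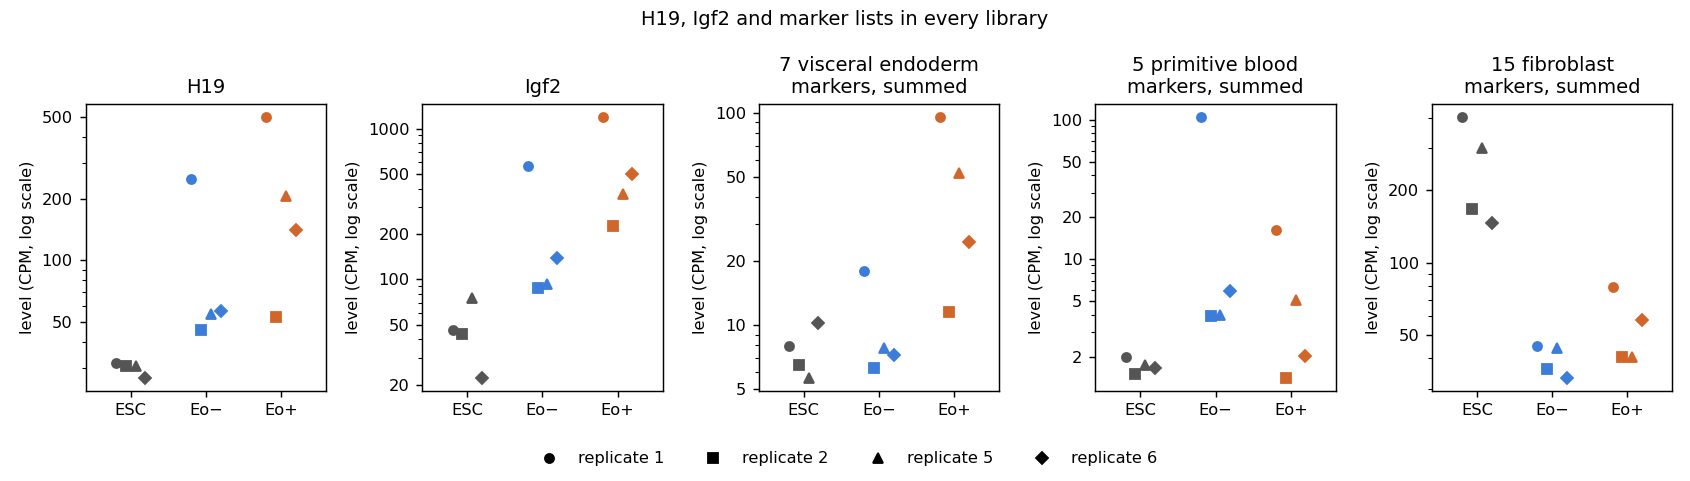
H19, Igf2 and the summed levels of the visceral endoderm, primitive blood and fibroblast marker lists in CPM (vertical axes on a log scale) in the 12 libraries, with a symbol per replicate number. Replicate 1 was the highest library of Eo− and of Eo+ for H19, Igf2 and both the endoderm and blood sums, and the fibroblast sum was highest in ESC at 146 to 404.5 CPM.

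The maternally expressed RNAs of the Dlk1-Dio3 domain were highest in Eo−. Meg3 was at 341, 316, 291 and 390.5 CPM in ESC, 549.8, 614, 612 and 614 CPM in Eo−, and 473, 377, 587 and 369 CPM in Eo+ replicates 1, 2, 5 and 6. All Eo− libraries lay above all ESC libraries, and Eo+ overlapped with both. The rise was 0.84 ± 0.13 in Eo− (limma adjusted p = 7.79e-05) and 0.42 ± 0.13 in Eo+ (limma adjusted p = 0.0112), both against ESC. Meg3 was lower in Eo+ than in Eo−, by -0.43 ± 0.13 (limma adjusted p = 0.0142), a call that was lost without Eo+ replicate 2 (adjusted p = 0.0501) or replicate 6 (adjusted p = 0.0525).

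Rian, the host of box C/D small nucleolar RNAs, was at 404.5, 365, 358 and 471 CPM in ESC. It reached 699.6, 626, 779.7 and 714 CPM in Eo− and 585.5, 469, 642 and 459 CPM in Eo+. The order of the groups was that of Meg3, with no Eo− library as low as an ESC library. Rian rose by 0.82 ± 0.12 in Eo− (limma adjusted p = 3.58e-05) and by 0.43 ± 0.12 in Eo+ (limma adjusted p = 0.00471). Its level was lower in Eo+ than in Eo−, by -0.40 ± 0.11 (limma adjusted p = 0.0115).

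Mirg, which carries the distal microRNA cluster with both sequences of a common seed shown above, was at 30.2, 29.3, 27.7 and 36.8 CPM in ESC. The Eo− values were 48.0, 62.4, 71.7 and 63.0 CPM and the Eo+ values 35.7, 32.4, 50 and 35.9 CPM. Eo− stood apart from ESC, and the highest Eo+ library was above the lowest Eo− library. Mirg rose by 0.98 ± 0.15 in Eo− (limma adjusted p = 6.18e-05) and was lower in Eo+ than in Eo− by -0.68 ± 0.14 (limma adjusted p = 0.00160). Against ESC the Eo+ difference of 0.30 ± 0.15 did not pass (limma adjusted p = 0.0914). It passed with no filter on low loci (0.38, limma adjusted p = 0.0448), without ESC replicate 6 (0.38, limma adjusted p = 0.0489) or without Eo+ replicate 2 (0.39, limma adjusted p = 0.0458).

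Dlk1 was the weakest of the 10 genes per length and moved the other way. Its ESC levels were 7.41, 7.45, 8.35 and 7.235 CPM. The Eo− libraries were at 7.232, 4.0, 3.52 and 5.0 CPM and the Eo+ libraries at 8.49, 7.43, 6.26 and 7.38 CPM. Eo− lay below ESC, but its replicate 1 touched the lowest ESC library within 0.01 CPM. Dlk1 fell by 0.67 on the log2 scale in Eo− against ESC (SE 0.18, limma adjusted p = 0.00623). In Eo+ against ESC the difference was -0.05 ± 0.18 (limma adjusted p = 0.820). Dlk1 was 0.62 ± 0.19 higher in Eo+ than in Eo− (limma adjusted p = 0.0140), which was lost without Eo− replicate 5 (0.48, adjusted p = 0.0515).

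Within a library the counts of Rian and Meg3 kept nearly the same proportion. Rian to Meg3 was 1.16 to 1.23 in ESC, 1.02 to 1.27 in Eo− and 1.09 to 1.25 in Eo+. The differences of its log2 value between groups were 0.01, -0.02 and 0.03 for Eo+ against ESC, Eo− against ESC and Eo+ against Eo− (exact permutation tests, p = 0.857, 0.886 and 0.714). Mirg to Meg3 was 0.0885 to 0.0953, 0.0874 to 0.117 and 0.0754 to 0.0972 in ESC, Eo− and Eo+, and its largest difference was -0.25 between Eo+ and Eo− (exact permutation test, p = 0.0571, 0.206 adjusted). Dlk1 to Meg3 was 0.0185 to 0.0287 in ESC, 0.00574 to 0.0132 in Eo− and 0.0107 to 0.0200 in Eo+. It was lower by 1.52 on the log2 scale in Eo− than in ESC, with no overlap and at the smallest p that 4 against 4 libraries allow (exact two-sided permutation test, p = 0.0286, 0.206 adjusted over 12 tests). Within the pairs of fractions Mirg to Meg3 was lower and Dlk1 to Meg3 higher in Eo+ in 4 of 4, again at the smallest p that pairs allow (exact two-sided test over pairs, p = 0.125 for each), while Rian to Meg3 was higher in 2 and lower in 2. Over the 12 libraries Meg3 had a Pearson r of 0.97 with Rian, 0.94 with Mirg and -0.74 with Dlk1, and within groups the values were 0.87, 0.82 and -0.39.

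**Figure D3:**
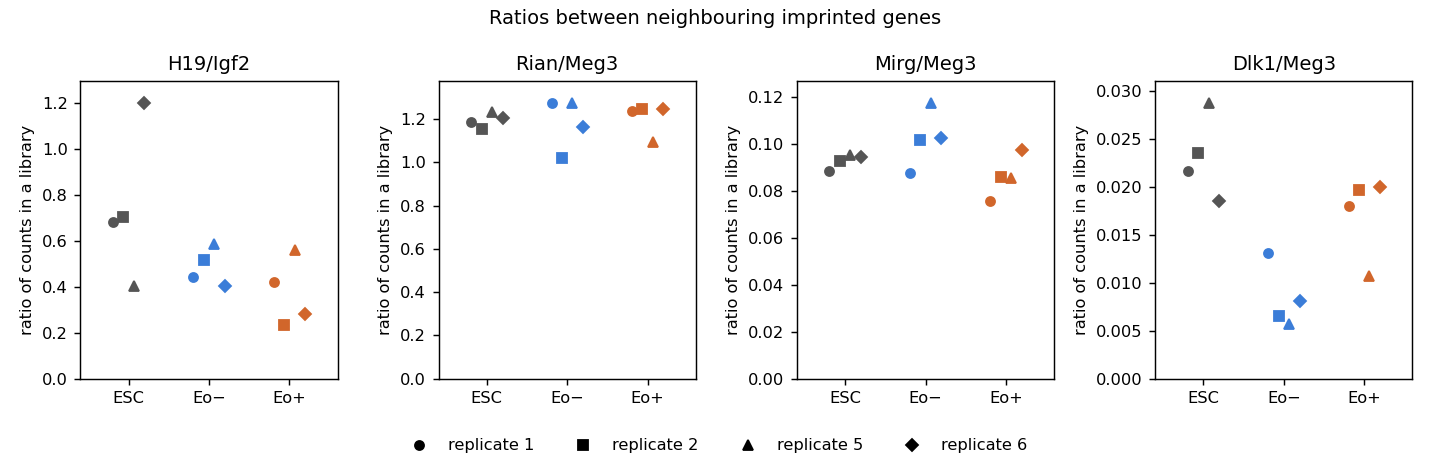
Ratio of the counts of 2 neighbouring genes within each library (vertical axes from 0, no unit) for the ESC, Eo− and Eo+ libraries, with a symbol per replicate number. Rian to Meg3 stayed between 1.02 and 1.27 in all 12 libraries, while Dlk1 to Meg3 was below every ESC library in all 4 Eo− libraries.

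Peg3 was highest in Eo+ and lowest in ESC. The zinc finger gene was at 84.3, 61.5, 93.8 and 68.2 CPM in ESC, at 219.8, 106, 106 and 150.2 CPM in Eo−, and at 576, 535, 419 and 566 CPM in Eo+. None of the 3 groups overlapped with another. Peg3 rose by 2.77 ± 0.21 in Eo+ (limma adjusted p = 5.52e-08) and by 0.87 ± 0.22 in Eo− (limma adjusted p = 0.00324) against ESC. The fractions differed by 1.90 ± 0.20 (limma adjusted p = 7.42e-06).

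Peg10, the retrotransposon-derived gene, was at 194, 312, 340.5 and 218.5 CPM in ESC. It was at 459.5, 214, 153 and 256 CPM in Eo− and at 954, 389, 507 and 488 CPM in Eo+. Every Eo+ library was above every ESC library, and Eo− replicate 1 reached above the lowest Eo+ library. Peg10 was 1.09 ± 0.32 higher in Eo+ than in ESC (limma adjusted p = 0.00726) and 1.14 ± 0.32 higher than in Eo− (limma adjusted p = 0.00956). Without replicate 1 of all groups the values were 0.68 (limma adjusted p = 0.00891) and 1.18 (limma adjusted p = 0.000882). Between Eo− and ESC the value was -0.05 ± 0.33 (limma adjusted p = 0.898), and its sign changed with the scaling, to 0.02 with library totals.

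Grb10, which encodes the receptor adaptor, was at 222, 266.5, 212 and 299.8 CPM in ESC and at 272, 216, 215 and 259 CPM in Eo−. In Eo+ it was at 453, 385, 477 and 420.2 CPM, above all 8 other libraries. The rise was 0.81 ± 0.11 against ESC (limma adjusted p = 2.23e-05) and 0.85 ± 0.11 against Eo− (limma adjusted p = 4.98e-05). Eo− and ESC differed by -0.05 ± 0.12 (limma adjusted p = 0.743), a value that turned to 0.03 with library totals.

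Snrpn was highest in Eo−. Its ESC levels were 416, 361, 411 and 455 CPM, its Eo− levels 662, 775, 885 and 775.5 CPM, and its Eo+ levels 333, 509.7, 549 and 413 CPM. All Eo− libraries stood above all others, and the Eo+ and ESC libraries were mixed. Snrpn rose by 0.91 ± 0.14 in Eo− against ESC (limma adjusted p = 5.94e-05) and was lower in Eo+ than in Eo− by -0.80 ± 0.14 (limma adjusted p = 0.000316). For Eo+ against ESC the difference was 0.11 ± 0.14 (limma adjusted p = 0.472).

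**Figure D4:**
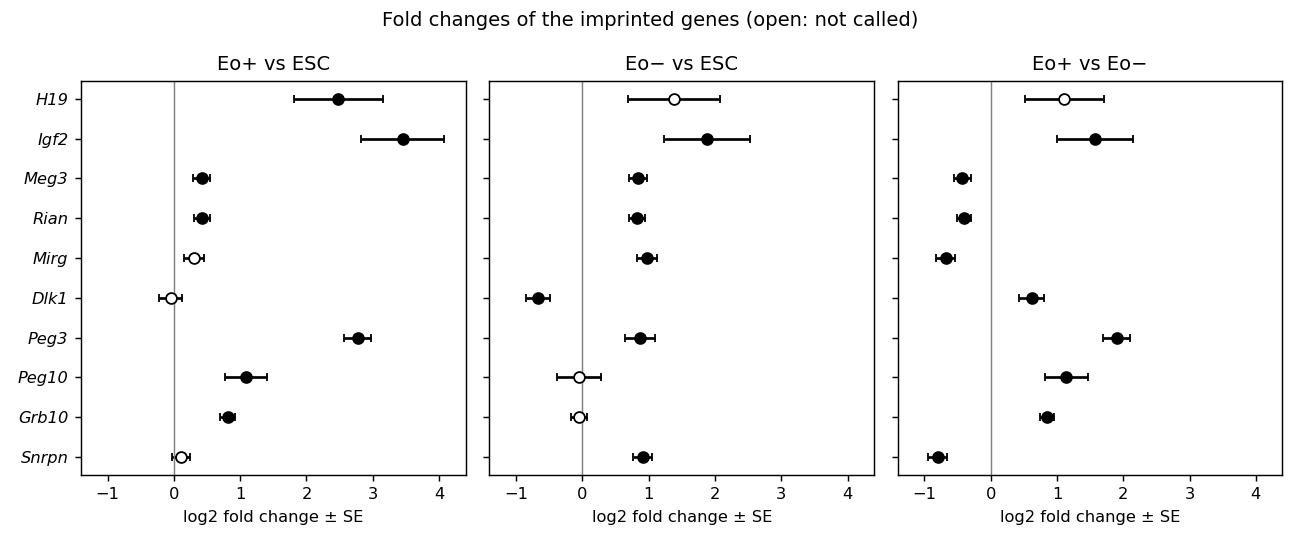
Log2 fold change ± SE (horizontal axis) of the 10 imprinted genes in Eo+ against ESC, Eo− against ESC and Eo+ against Eo−, from the limma-voom fit of 12 libraries, with filled points for called genes. Igf2 (3.45) and Peg3 (2.77) had the largest differences in Eo+ against ESC, and Meg3, Rian, Mirg and Snrpn lay to the left of 0 in Eo+ against Eo−.

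The 10 genes thus followed different orders of the groups. Peg10 and Grb10 were called higher in Eo+ than in both other groups and were not called between Eo− and ESC. Igf2 and Peg3 were called in all 3 comparisons, in the order ESC, Eo−, Eo+. Meg3 and Rian were called in all 3 in the order ESC, Eo+, Eo−. Mirg and Snrpn were called higher in Eo− than in both other groups and were not called between Eo+ and ESC. Dlk1 was called lower in Eo− than in both other groups, and H19 was called in Eo+ against ESC alone. These calls are from the fit without the replicate block. With the block H19 was also called in Eo− against ESC (1.61, limma adjusted p = 0.00336) and in Eo+ against Eo− (1.13, limma adjusted p = 0.0203). Groups did not overlap for 5 genes in Eo+ against ESC, 8 in Eo− against ESC and 3 in Eo+ against Eo−, where 64.5%, 55.8% and 45.9% of all tested loci did not overlap. Expressed per kilobase of assembled exon, the order of mean FPKM also changed between the groups. The length used was the union of all exons assembled at a locus. It was 2372 bases for H19, 34328 for Rian and 18256 for Snrpn, whose locus holds other genes. This need not be the length of the mature RNA, so ranks between genes depend on the assembly. In ESC the order ran from Peg10 at 39.4, Grb10 at 23.7 and Snrpn at 22.5 down to Mirg at 3.54 and Dlk1 at 1.34. In Eo+ the highest were Igf2 at 99.2, H19 at 95.2 and Peg10 at 86.5 FPKM, and in Eo− H19 at 42.8, Snrpn at 42.4, Peg10 at 40.1 and Igf2 at 38.1 FPKM. The H19 and Igf2 means in both fractions rest in large part on replicate 1. Without it Eo+ was led by Peg10 at 68.3, Igf2 at 63.2 and H19 at 56.3 FPKM, and Eo− by Snrpn at 44.5 and Peg10 at 30.8 FPKM, with H19 at 22.0 and Igf2 at 18.5 FPKM.

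Genes with a like pattern were sought by Pearson r of log2 CPM over the 12 libraries, among 12775 annotated loci with a mean of at least 1 CPM. The r values describe libraries of 3 groups and carry no test. Peg3 was most like Bmper (0.992), Mid2 (0.991) and the locus of Gata3 with 9230102O04Rik (0.991). H19 was most like Wnk4 (0.980), the visceral endoderm marker Ttr (0.976) and Vwa7 (0.975), and Igf2 like Zfp711 (0.980), Ets1 (0.975) and Frmd4b (0.975). Meg3 and Rian named each other (0.972) and shared Rassf6 (0.979 and 0.975) and the tight junction gene Ocln (0.968 and 0.973). Mirg was most like the locus of Ell3 and Serinc4 (0.976), Hrc (0.966) and Slc16a11 (0.960). Snrpn was closest to Slitrk5 (0.975), Celf3 (0.973) and Xkr7 (0.971), and Grb10 to Invs (0.976), Plekha6 (0.962) and Ehbp1 (0.958). Peg10 was closest to Cdc42ep1 (0.933), Cited1 (0.924) and Prcp (0.919), and Dlk1 to Trak2 (0.937), Zfp27 (0.932) and the locus of Cntf and Zfp91 (0.927).

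A wider list of 58 imprinted genes or neighbours in imprinted domains was read in the same fit. A locus was found for 54 of them and 48 were tested, on 47 loci, because Cd81 and Tssc4 were joined in 1 locus. Of the 48 genes 37 were called in Eo+ against ESC, 21 higher and 16 lower. In Eo− against ESC 34 were called, 15 higher and 19 lower, and between Eo+ and Eo− 26, of which 19 were higher in Eo+. Their median log2 differences were 0.05, -0.18 and 0.17. The called shares stand beside backgrounds of 71.9%, 62.2% and 47.7% of all loci. By direction the backgrounds were 35.8% higher and 36.1% lower, 30.9% and 31.3%, and 23% and 24.6%, in the same order.

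In the domain of Peg10, Asb4 had the largest change of the wider list. Its mean was 5.22 ± 1.60 CPM in ESC, 12.3 ± 2.93 CPM in Eo− and 107 ± 45.4 CPM in Eo+ (SD, n = 4 each), with log2 differences of 4.31 ± 0.35 in Eo+ against ESC (limma adjusted p = 1.20e-07) and 3.05 ± 0.29 in Eo+ against Eo− (limma adjusted p = 3.23e-06). Sgce, Casd1 and Pon2 of that domain were also called higher in both day 3 fractions than in ESC and higher in Eo+ than in Eo−. Ppp1r9a was called higher in both fractions than in ESC but not between them, and Tfpi2 was called higher in Eo+ than in both other groups and not between Eo− and ESC. In the Grb10 domain Cobl fell in both fractions, from 95.9 ± 10.6 CPM in ESC to 14.0 ± 1.06 CPM in Eo− and 6.11 ± 2.06 CPM in Eo+ (limma adjusted p = 3.62e-10 in Eo+ against ESC). In the Peg3 domain Zim1 was at 1.71 ± 0.28 CPM in ESC, 1.79 ± 0.81 CPM in Eo− and 6.25 ± 2.00 CPM in Eo+, and was 1.84 ± 0.27 higher in Eo+ than in Eo− (limma adjusted p = 0.000110). Usp29 of the same domain was called lower in both fractions than in ESC.

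In the domain next to H19 and Igf2, Phlda2, a maternally expressed brake on placental growth, was at 91.6 ± 17.3 CPM in ESC, 34.1 ± 4.32 CPM in Eo− and 155 ± 67.7 CPM in Eo+. It was 2.05 ± 0.32 higher in Eo+ than in Eo− (limma adjusted p = 0.000162). The cell cycle inhibitor Cdkn1c was likewise called lower in Eo− than in ESC and higher in Eo+ than in Eo−. The locus shared by Cd81 and Tssc4 fell from 196 ± 27.6 CPM in ESC to 156 ± 7.39 CPM in Eo− and 158 ± 7.76 CPM in Eo+, and Nap1l4 rose from 185 ± 7.22 to 218 ± 20.7 CPM in Eo+. At the far end of the Dlk1-Dio3 domain Dio3, which inactivates thyroid hormone, was at 3.03 ± 0.27 CPM in ESC, 0.586 ± 0.144 CPM in Eo− and 0.368 ± 0.091 CPM in Eo+, with a log2 difference of -3.08 ± 0.22 in Eo+ against ESC (limma adjusted p = 3.50e-08). Wars, which lies beyond Dlk1 on chromosome 12, fell slightly, from 144 ± 10.7 to 126 ± 8.45 and 122 ± 11.7 CPM. Around Snrpn, Ndn and Magel2 were called higher in both fractions than in ESC, and the genes of that domain were divided between the fractions. Magel2 and Atp10a, like Snrpn, were called lower in Eo+ than in Eo−, while Ndn, Peg12 and Ube3a were called higher.

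Of the genes in other imprinted domains Gnas, the stimulatory G protein locus, was the most abundant. It rose from 297 ± 26.1 CPM in ESC to 699 ± 27.2 CPM in Eo− and 1056 ± 26.8 CPM in Eo+, by 1.24 ± 0.06 and 1.83 ± 0.06 on the log2 scale (limma adjusted p = 7.03e-09 and 8.56e-11). Sfmbt2, a Polycomb gene, was at 51.1 ± 3.46 CPM in ESC, 12.8 ± 3.59 CPM in Eo− and 9.71 ± 2.00 CPM in Eo+. The amino acid transporter Slc38a4 was at 187 ± 21.6, 99.1 ± 21.1 and 269 ± 76.2 CPM in ESC, Eo− and Eo+, so that it was lower in Eo− and higher in Eo+ than in ESC by the test. Impact was at 424.5 ± 139, 256 ± 26.7 and 255 ± 16.9 CPM, and Commd1, joined with B3gnt2 in 1 locus, at 145 ± 9.08, 127 ± 9.08 and 129 ± 3.36 CPM.

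**Figure D5:**
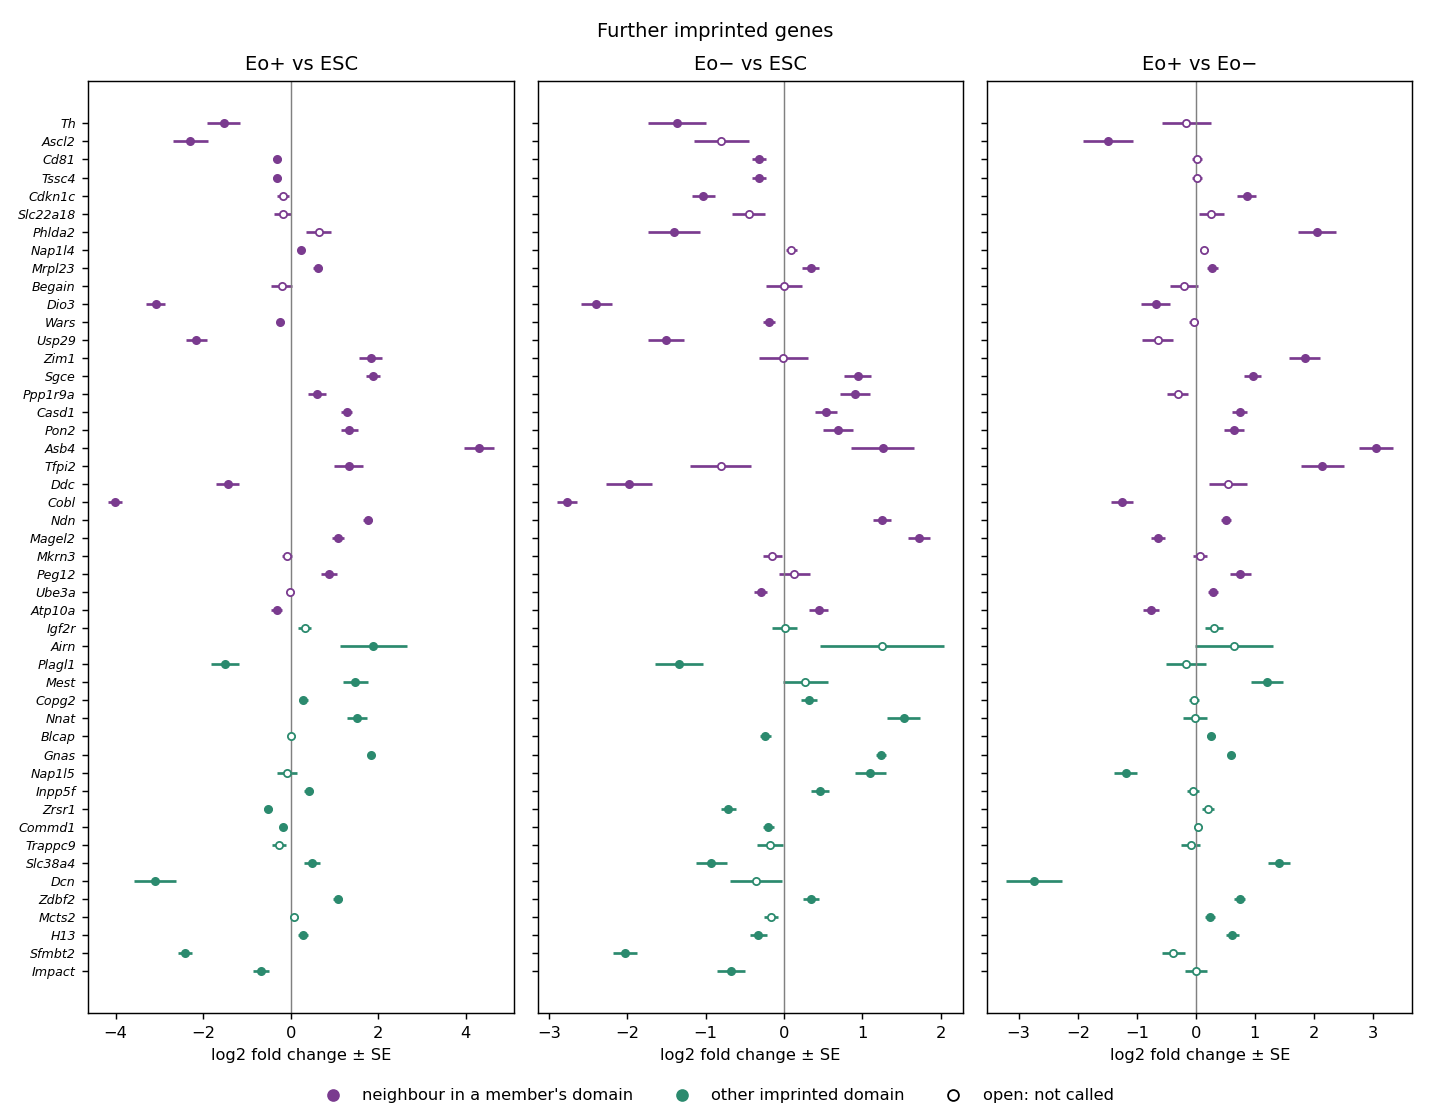
Log2 fold change ± SE (horizontal axes, each with its own range) of the 48 tested genes of the wider imprinted list in the 3 comparisons, coloured by whether the gene lies in or next to the domain of one of the 10 genes or in another imprinted domain, with open points for genes that were not called. Asb4 reached 4.31 and Cobl -4.02 in Eo+ against ESC. Between the fractions 19 genes were called higher and 7 lower in Eo+, beside 23% and 24.6% of all tested loci.

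Factors with a part in the protection or reading of imprints were listed separately, and the examples with values in this paragraph were chosen after their values were seen. Of 7 such genes, 2 were called higher and 3 lower in Eo+ against ESC, 1 higher and 3 lower in Eo− against ESC, and none higher and 2 lower in Eo+ against Eo−. ZFP57 is the zinc finger protein that binds methylated imprint control regions, and its gene fell from 267 ± 34.8 CPM in ESC to 75.8 ± 9.50 CPM in Eo− and 98.4 ± 22.7 CPM in Eo+. Its cofactor gene Trim28 fell from 2573 ± 158 CPM to 1549 ± 164 and 1225 ± 138 CPM, and Dppa3 from 32.3 ± 4.94 to 6.93 ± 1.05 and 0.138 ± 0.079 CPM. Zfp445, another zinc finger gene of imprint control, rose by 0.35 and 0.27 on the log2 scale in Eo+ and Eo− against ESC, and Ctcf, the gene of the insulator factor, by 0.18 in Eo+. The maintenance methyltransferase gene Dnmt1 did not pass in any comparison, at 239.9 ± 24.8, 229.8 ± 19.7 and 218 ± 23.9 CPM. Of 12 genes of the IGF pathway, 7 were called higher and 2 lower in Eo+ against ESC, 7 higher and 1 lower in Eo− against ESC, and 5 higher and 2 lower in Eo+ against Eo−. The called numbers of both lists stand beside 71.9%, 62.2% and 47.7% of all loci in these comparisons, and nothing is read from them. The IGF1 receptor gene Igf1r rose from 32 ± 2.08 CPM in ESC to 62.0 ± 3.03 and 54.8 ± 5.48 CPM in Eo− and Eo+, the binding protein gene Igfbp4 from 35.8 ± 7.94 to 91.6 ± 31.3 and 415 ± 163 CPM, and the RNA-binding protein gene Igf2bp3 from 64.9 ± 11.7 to 164 ± 12.6 and 213 ± 7.31 CPM. Against ESC the members that fell were Igf2bp1, with -0.47 in Eo+ and -0.52 in Eo−, and Igfbp2, with -0.51 in Eo+. Igf1 and Irs2 were called lower in Eo+ than in Eo−.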

How the data were processed

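Poly(A) RNA of 12 libraries was sequenced on both ends with strand kept. The authors aligned the reads to mm10 with STAR, assembled transcripts with Cufflinks and Cuffmerge on Ensembl models, and deposited HTSeq counts per merged locus (union mode, reverse strand) as raw whole numbers. A table that the authors normalized was not used. No column of another sample was present (0 columns). Reads that aligned to several places (22.4% to 26.2%), outside loci (2.65% to 3.60%) or ambiguously (0.0150% to 0.0193%) entered neither library sizes nor tests.

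Loci were classed with GENCODE biotypes (97.7% of matched transcripts found), and protein-coding, annotated and multi-exon non-annotated noncoding loci with a mean FPKM above 0.1 in at least 1 group were tested. Library sizes were the summed counts of these 17922 loci, scaled by TMM (edgeR 4.0.16). Voom and limma 3.58.1 in R 4.3.3 fitted 1 mean per group over all 12 libraries, two-sided, with Benjamini-Hochberg adjustment over the tested loci. CPM were computed from these sizes, and FPKM by dividing by summed exon length in kilobases. The script was tested on simulated data. Ratios were tested by exact permutation (scipy 1.17.1). DESeq2 1.42.0 and edgeR were alternatives.

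The 10 genes and all lists were chosen with earlier results of these data known. All 10 genes are named with values. From the wider list, values are given for the 8 most abundant genes and, per comparison, the 3 called genes that differed most and reached a group mean of 1 CPM. Kcnq1ot1 of that list, which was not tested, is given outside this rule. For likeness the 3 annotated loci with the highest r per gene are named. The groups came from the labels, as did the replicate numbers. Libraries that share a number in Eo+ and Eo− deviated together (r = 0.634, 0.312, 0.371 and 0.407 for numbers 1, 2, 5 and 6), while r with ESC ranged from -0.125 to 0.43. The methods place the 12 libraries in 4 differentiation sets, and the numbers were taken to mark these sets, which pairs the groups. The floor of 3 counts covers counting error only, while SD and SE hold the spread between libraries.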

Additional observations from a re-analysis of the deposited data

Results flagged for a closer look

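In Eo− the highest library stood apart from the other 3 for H19 (248.8 CPM, replicate 1) and for Igf2 (561.9 CPM, replicate 1). The gap to the next library was 0.947 and 0.892 of the range of the group, past Dixon's 95% critical value for 4 libraries. The sum of the blood markers was also highest in that library, at 105 CPM, of which Hbb-bh1 gave 76.2 CPM. In the same library Meg3 was the lowest of the Eo− group, at 549.8 CPM, with a gap of 0.971 of the range, although the whole range ran only from 549.8 to 614.3 CPM. The ratio of Rian to Meg3 was lowest in Eo+ replicate 5, at 1.094, with a gap of 0.951. These were 4 of 42 groups of 4 values examined, of which chance places about 1 in 20 past the critical value. What set these libraries apart was not tested.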

How the results depend on the processing

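Of 640 refitted values of the 10 genes (each gene and comparison under each alternative), 599 kept their direction and their side of the threshold, 13 lost and 14 gained a call, and 14 changed sign, all of the last among values that were not called. A further requirement of a 2-fold change left 4, 1 and 3 of the 10 genes, and 22, 15 and 10 of the wider list, in Eo+ against ESC, Eo− against ESC and Eo+ against Eo−, beside 38.1%, 28.3% and 21.1% of all loci. The sign of Dlk1 in Eo+ against ESC turned with no filter (0.03) and ranged from -0.11 to 0.03 when 1 library was left out. Peg10 in Eo− against ESC was 0.02 with edgeR, with library totals and with no filter, and -0.35 to 0.18 with 1 library left out. Grb10 in Eo− against ESC was 0.03 with library totals and 0.02 with no filter, and -0.12 to 0.04 with 1 library left out. Without replicate 1 of all groups these 3 values were -0.13, -0.50 (limma adjusted p = 0.0546 for Peg10) and -0.16. With 1 library left out, the log2 ratio of Rian to Meg3 ranged from -0.01 to 0.06, -0.06 to 0.05 and -0.04 to 0.08 in the 3 comparisons. The cause of these turns was not tested. With 1 library of 4 left out, the exact test of a ratio cannot fall below p = 0.0571, so the loss of Dlk1 to Meg3 there says nothing about stability.

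With the replicate block in the fit of 12 libraries, the 10 genes had 7, 8 and 10 calls in place of 7, 7 and 9, and the wider list 39, 35 and 30 in place of 37, 34 and 26, while the share of all loci called rose to 74.8%, 66.1% and 53.3%. Among the 10 genes the block changed the call of H19 alone, in Eo− against ESC (1.61, limma adjusted p = 0.00336) and between the fractions (1.13, limma adjusted p = 0.0203). The blocked fit of the 8 sorted libraries, chosen after seeing the data, called 10 of the 10 genes and 32 of the wider list, beside 58% of all loci. The tests of ratios over pairs were also chosen after seeing the data. Leaving out replicate 1 of all groups, also chosen after seeing the data, changed the call of H19 between the fractions (1.15, limma adjusted p = 0.0344) and of no other gene of the 10. H19 in Eo− against ESC was also called in a fit of the 2 groups (1.38, limma adjusted p = 0.0216) and without Eo+ replicate 1 (adjusted p = 0.0413) or 2 (adjusted p = 0.0424), libraries outside that comparison. Scaling by library totals took the median of all loci from 0.02 to 0.09 in Eo− against ESC, its largest move, and no filter took it from 0.0 to -0.10 in Eo+ against ESC. Depth limited none of the 10 genes, the lowest having 2514 reads.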

Other observations

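Between the start of Meg3 and the end of Mirg 48 loci were assembled on the plus strand, of which 5 reached 1 CPM in at least 1 library. Beside the 3 named RNAs these were 2 loci of microRNA clusters. The first, at chr12:109571990-109592928 with Mir127, Mir431 and Mir433, had a mean of 6.39 CPM in ESC, 9.27 CPM in Eo− and 4.07 CPM in Eo+, with ranges of 5.54 to 6.76, 7.50 to 10.6 and 3.54 to 5.41 CPM. The second, at chr12:109667710-109723030 with B830012L14Rik, Mir329, Mir494 and Mir495, was at 1.05 to 1.82 CPM in ESC, 1.43 to 2.63 CPM in Eo− and 0.554 to 1.56 CPM in Eo+. Both had their highest mean in Eo−, as Meg3, Rian and Mirg did, and, unlike these, their lowest in Eo+. These loci were chosen by position and no test was made of them.

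The noncoding RNA Kcnq1ot1, of the domain next to H19 and Igf2, was below the filter because of its length, and was chosen after its values were seen, with a mean of 5.78 ± 1.89 CPM in ESC, 5.58 ± 1.32 CPM in Eo− and 7.61 ± 1.27 CPM in Eo+ (SD, n = 4 each).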
